A study of Ovis aries with 6 samples.

Results

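Nuclear receptors are transcription factors whose activity is set by small fat-soluble ligands, among them glucocorticoids, retinoic acid, thyroid hormone, vitamin D, fatty acids and oxysterols; several members of the family have no known natural ligand. Their transcripts were followed here in cultured sheep cells of the adipose stromal vascular fraction, the mixed cell fraction that contains fat cell precursors. Genes were taken by name from the deposited table: of 43 receptor symbols looked for, 39 had a row under that symbol, among 26425 rows in all. PPARG2, RXRA and NR1H3 were not among the 43. THRB and RORB had rows under the older symbols ERBA BETA1 and NR1F2 (RefSeq synonyms) and are given beside the 39 without being counted. NR2E3 and NR3C2 were not analysed here.

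The study forced expression of MEOX2, a homeobox transcription factor of the mesoderm, in 3 samples and compared them with 3 control samples labelled NC. The column names of both groups carry the prefix pHBLV, and the sample labels call the cells adipocytes. The labels do not state breed, age, number of donors, culture stage or time after MEOX2 delivery. It is therefore unknown whether the 3 samples of a group came from separate animals or cultures, and the p-values measure only the spread between these samples. The series asks how MEOX2 acts on adipogenic differentiation. Fat cell formation in culture is classically driven through nuclear receptors. PPARG with an RXR partner is the core switch, glucocorticoid acting on NR3C1 is a standard part of the inducing mixture, and retinoic acid and vitamin D can hold precursors back.

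MEOX2 itself was at 153, 107.7 and 138 FPKM (reads scaled by the authors to gene length and library size) in the MEOX2 samples and at 10.8, 10.1 and 9.03 FPKM in NC. Its log2 difference was 3.60, called by limma (adjusted p = 1.15e-05). An exact two-sided permutation test gave p = 0.1, the smallest that 3 against 3 samples allow. Each library held 11772772 to 12230863 reads. Progenitor genes such as PDGFRA (162 FPKM over the 6 samples) and LUM (1234 FPKM) were abundant, but CD34 averaged 1.01 FPKM and PI16 0.224 FPKM. ADIPOQ averaged 7.13 FPKM with MEOX2 and 36.9 FPKM in NC, and LEP had 0 reads. The cells thus carried both progenitor and fat cell transcripts. Among the 8 matched leukocyte genes, PTPRC had 3 reads in the 6 libraries together, while CD14 averaged 111.1 FPKM, CD68 8.47 FPKM, LAPTM5 1.97 FPKM and CD163 1.85 FPKM. The 6 matched endothelial markers summed to at most 0.436 FPKM in any library, with EMCN at 0.

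None of these 39 nuclear receptor genes was called by limma between the groups. PPARG2, which was not among the 43 symbols, was called lower with MEOX2 (limma adjusted p = 0.00875). Of the 39, 22 averaged 1 FPKM or more and were tested. limma on log2(FPKM + 1), adjusted over all 13121 genes tested by the Benjamini-Hochberg method, called 0 of the 22 at a threshold of 0.05, against 2.67% of all genes (1.51% higher and 1.16% lower). At an unadjusted p under 0.05, 6 of the 22 (27.3%) passed, against 13.4% of all genes; 2 were higher and 4 lower, against 7.08% and 6.35% of all genes. The MEOX2 and NC values did not overlap for 6 genes (27.3%), against 18.9% of all genes. NR3C1, NR4A2, RARG and NR2C2 lay lower with MEOX2 (4 of 22, against 9.33% of all genes), and RARB and VDR lay higher (2 of 22, against 9.6%). limma voom on reads recovered from the FPKM values called 2 of the 22, NR3C1 and NR4A2, both lower, against 4.37% of all genes. The members' median log2 difference was -0.01 and that of all genes -0.00273. The members' median absolute difference was 0.129, against 0.107 for all genes. For 15 of the 22 genes the 95% interval of the difference lay within 0.5 of 0 on the log2 scale, and for the other 7 it reached further.

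**Figure D1:**
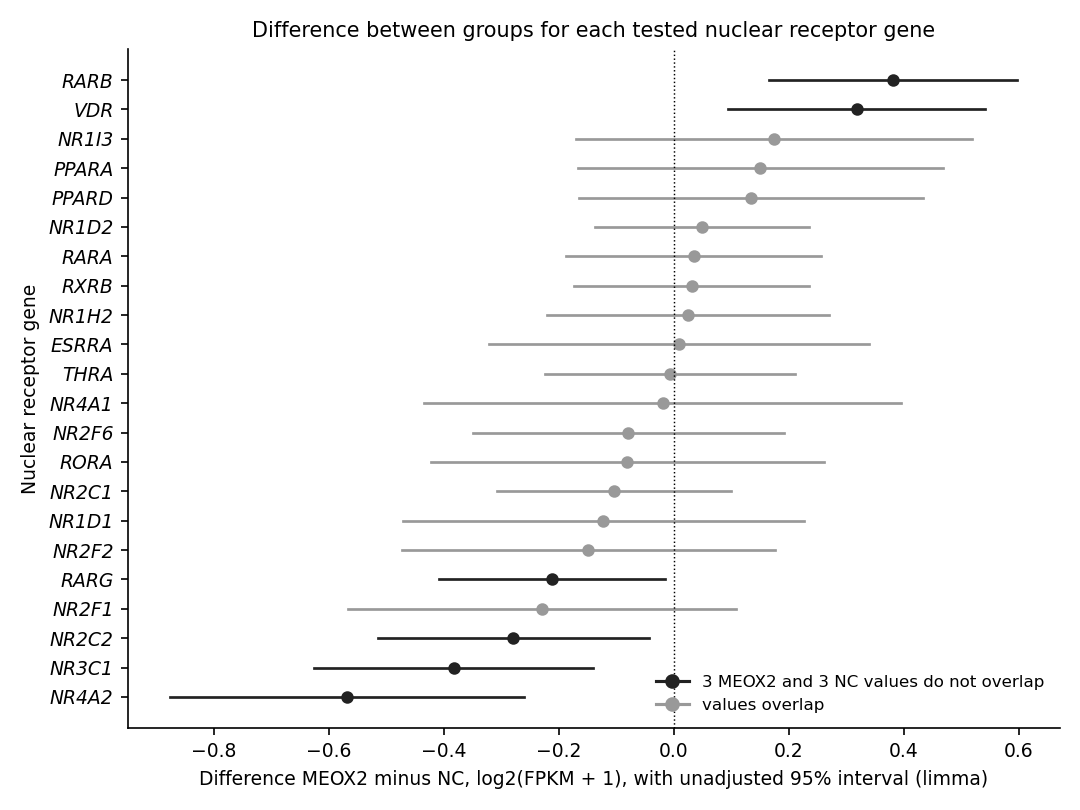
Difference between MEOX2 and NC for the 22 tested nuclear receptor genes on the log2(FPKM + 1) scale (horizontal axis), with the unadjusted 95% interval from limma. Black marks the 6 genes whose 3 MEOX2 and 3 NC values do not overlap, from NR4A2 at -0.57 to RARB at 0.38; gray marks the 16 whose values overlap.

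Some markers of fat cells and of contractile cells differed between the same samples. The 9 matched mature adipocyte markers summed to 133 to 154 FPKM with MEOX2 and to 305 to 361 FPKM in NC. Most of that sum was FABP4, at 68.4 to 86.1 FPKM with MEOX2 and 205 to 254.5 FPKM in NC. Of the 7 tested, ADIPOQ, FABP4, PLIN1 and CIDEC were called lower, PLIN1 and CIDEC losing the call whichever library was left out (largest limma adjusted p 0.0872 and 0.0958). The 7 matched smooth muscle and pericyte markers summed to 582 to 619 FPKM with MEOX2 and to 484 to 495 FPKM in NC. Most of that sum was TAGLN, at 479 to 521 FPKM with MEOX2 and 412 to 419 FPKM in NC. Of the 5 tested, CNN1 and CSPG4 were called higher. CNN1 lost the call when MEOX2 sample 3 was left out (limma adjusted p = 0.0615), and CSPG4 whichever library was left out (up to 0.133). TAGLN (log2 difference 0.27, limma adjusted p = 0.0819), MYH11 (0.03, 0.935) and NOTCH3 (0.08, 0.819) were not called by limma. DES and RGS5 were not tested. None of 11 tested progenitor markers, 4 leukocyte markers or 2 mesothelial markers was called by limma, with 5, 1 and 0 at an unadjusted p under 0.05, and 1, 1 and 0 called by voom. Of those 5 progenitor markers, PDGFRA and LUM were higher with MEOX2, and ENG, NT5E and CD34 were lower. In bulk RNA, fewer cells of a type and less RNA per cell cannot be told apart. The part of these marker shifts in the receptor values below was not tested.

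The receptors spanned a wide range of levels. Per kilobase, 5 genes averaged above 20 FPKM over the 6 samples (NR3C1, VDR, THRA, RARG and RARA), 11 lay between 5 and 20 FPKM and 6 between 1 and 5 FPKM. NR3C1 ranked first in all 6 libraries and made up 13.9% to 21.3% of the summed FPKM of the 39 genes. VDR ranked next in the 3 MEOX2 samples and in NC sample 3, and THRA in NC samples 1 and 2. The order is otherwise loose: of the 21 neighbouring pairs in the order of means, 18 had overlapping ranges over the 6 libraries. The 3 steps that stood clear were from RARA to NR2C1, from NR2C1 to NR4A2, and from NR1D2 to RXRB. The gene length in the table is a multiple of 3 for 16 of the 22, as a coding length would be, and not for NR3C1, RXRB, NR2C2, ESRRA, NR2F2 and PPARA. Levels of those 6 may therefore rest on another kind of length. A multiple of 3 does not prove a coding length, so the 16 need not share 1 kind of length either. NR1H2, with 4434 bases, is among them.

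**Figure D2:**
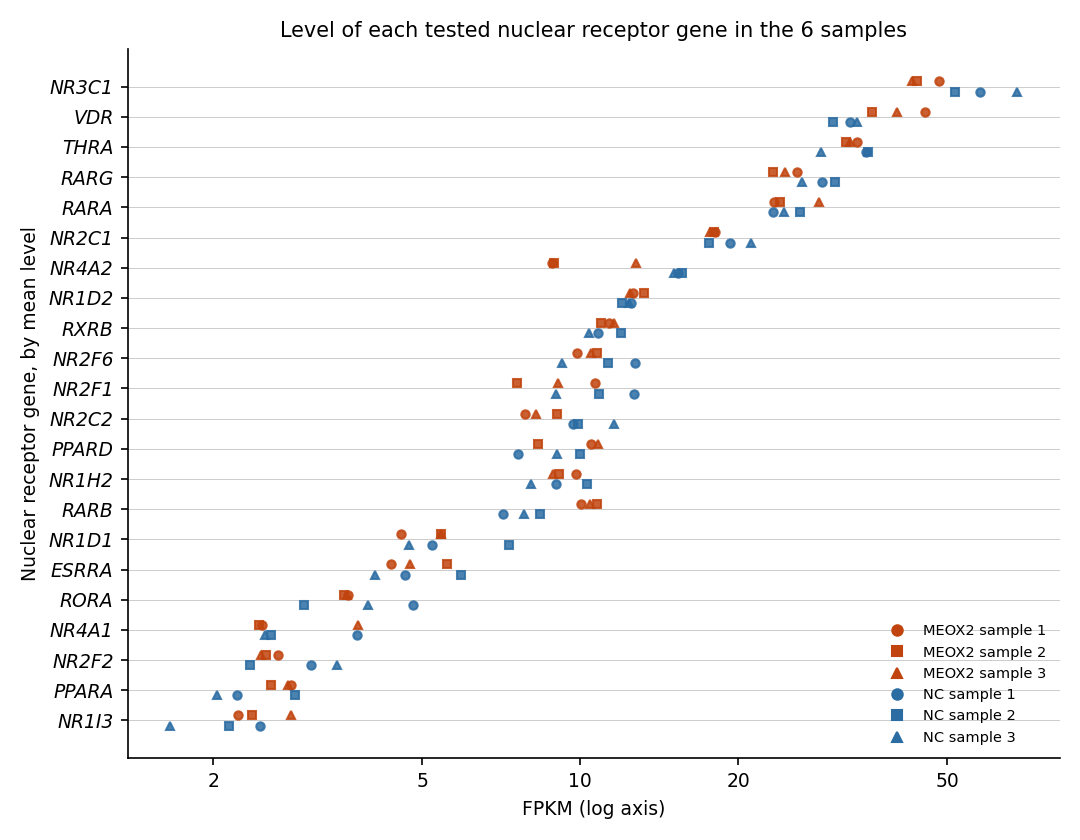
FPKM on a log axis of the 22 tested nuclear receptor genes, ordered by mean, with 1 point for each of the 3 MEOX2 samples (orange) and 3 NC samples (blue). NR3C1 leads at 42.9 to 68.0 FPKM, and NR1I3 is last at 1.66 to 2.81 FPKM.

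Of the 4 steroid receptor genes with a row here (NR3C1, PGR, ESR1 and ESR2), NR3C1 alone was high enough to be tested. NR3C1, the glucocorticoid receptor (ENSOARG00000002045, chromosome 5, 51733916 to 51850972, minus strand, as the deposited table gives it; its build, as for all coordinates below, is unnamed in the labels), was at 48.2, 43.7 and 42.9 FPKM in MEOX2 samples 1 to 3 and at 57.8, 51.8 and 68.0 FPKM in NC samples 1 to 3. Every MEOX2 sample lay below every NC sample, and NC sample 3 was the highest. The means were 44.9 ± 2.88 and 59.2 ± 8.20 FPKM (SD, n = 3 each), 1.32-fold lower with MEOX2. The log2 difference was -0.38 (SE 0.11, 95% interval -0.63 to -0.14) with a limma adjusted p of 0.125. limma voom called it (adjusted p = 0.0130). On the second principal component of the tested genes (22.2% of variance) NC sample 3 was far from the rest, and without it the difference was -0.28 (limma adjusted p = 0.184). The gene rests on 3531 to 5653 reads per library. The sex steroid receptors were near the floor of detection. The progesterone receptor PGR had 16 reads in the 6 libraries together, the estrogen receptor ESR1 had 6 and ESR2 had 2.

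VDR, RARG and RARA, with THRA, also averaged above 20 FPKM, while RARB averaged 9.09 FPKM. VDR (ENSOARG00000019372, chromosome 3, 138499404 to 138532443, plus strand), which pairs with RXR on vitamin D response elements, was at 45.4, 36.0 and 40.1 FPKM with MEOX2 and at 32.7, 30.2 and 33.6 FPKM in NC. All 3 MEOX2 samples were above all NC samples, and MEOX2 sample 1 was the highest. Its log2 difference was 0.32 (SE 0.10, 95% interval 0.09 to 0.54), with a limma adjusted p of 0.168 and 0.0834 by limma voom. Without MEOX2 sample 1 the difference was 0.23 (limma adjusted p = 0.408).

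The 3 retinoic acid receptor genes, which bind DNA with RXR and switch from repression to activation when retinoic acid is bound, did not lie on the same side. RARB (ENSOARG00000004373, chromosome 26, 38699979 to 38882521, minus strand), itself a classical retinoic acid target gene, was at 10.05, 10.7 and 10.4 FPKM with MEOX2 and at 7.11, 8.37 and 7.81 FPKM in NC. The groups did not overlap, and the means of 10.4 ± 0.348 and 7.77 ± 0.629 FPKM (SD, n = 3 each) differed 1.34-fold. The log2 difference was 0.38 (SE 0.10, 95% interval 0.17 to 0.60) with a limma adjusted p of 0.0866, and 0.0947 by limma voom. RARG (ENSOARG00000016626, chromosome 3, 133126743 to 133131069, plus strand) was at 25.8, 23.3 and 24.6 FPKM with MEOX2 and at 28.8, 30.6 and 26.5 FPKM in NC. Its highest MEOX2 value and lowest NC value were less than 1 FPKM apart, and the difference was -0.21 (SE 0.09, limma adjusted p = 0.320). RARA (chromosome 11, 40151341 to 40172203, plus strand) was at 23.4, 24.0 and 28.5 FPKM with MEOX2 and at 23.3, 26.2 and 24.4 FPKM in NC, and the groups overlapped. Its difference of 0.03 had a 95% interval from -0.19 to 0.26. RARA overlaps 3445 bases of TOP2A and RARB overlaps 3015 bases of TOP2B, each on the opposite strand. No source names the strand setting of the counting, so the reads of those stretches cannot be assigned. TOP2B had a log2 difference of 0.00900 (limma adjusted p = 0.981).

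**Figure D3:**
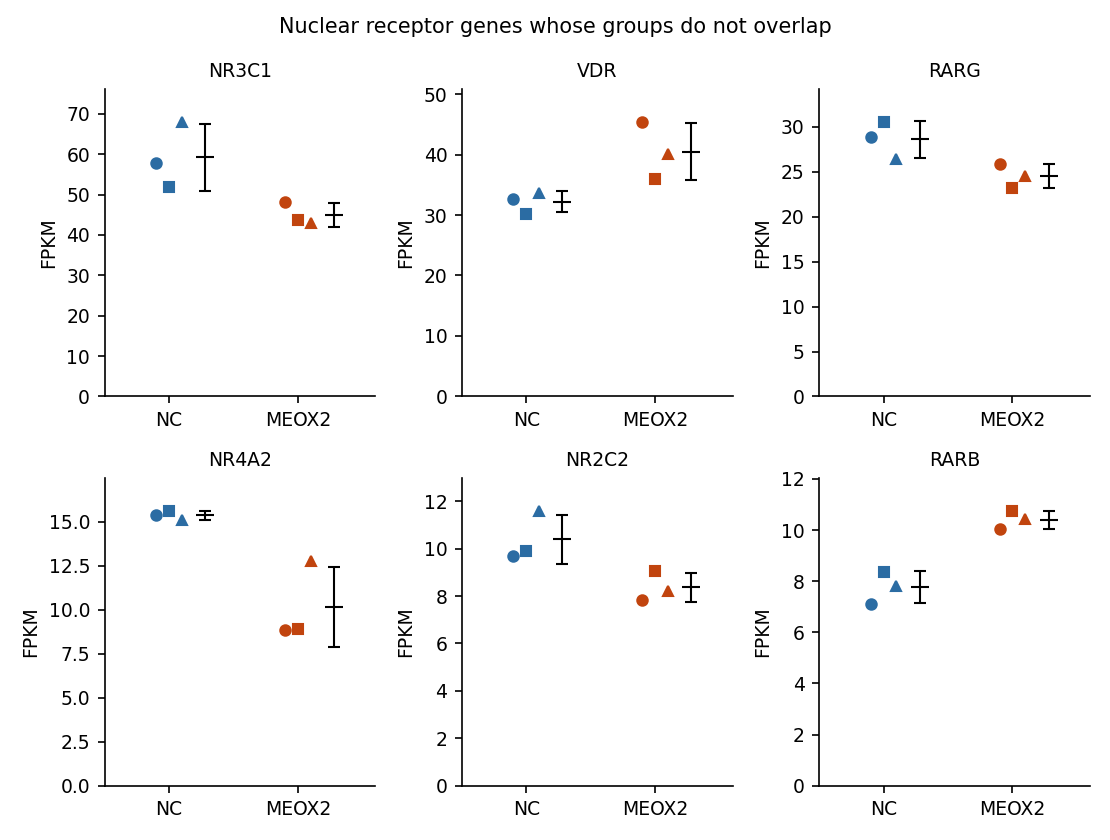
FPKM per sample (circle, square and triangle for samples 1, 2 and 3) of the 6 nuclear receptor genes whose groups do not overlap, with mean and SD as bars beside the points and axes starting at 0. NR4A2, for example, is at 8.82 to 12.8 FPKM in the MEOX2 samples and at 15.1 to 15.6 FPKM in the NC samples.

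The tested thyroid hormone and clock receptors had overlapping groups, and neither limma nor voom called them. THRA (chromosome 11, 39957731 to 39971047) was at 33.7, 32.0 and 32.6 FPKM with MEOX2 and at 35.1, 35.4 and 28.8 FPKM in NC. Its 95% interval ran from -0.22 to 0.21 on the log2 scale. NR1D1, the REV-ERB alpha repressor of the circadian clock, overlaps THRA by 495 bases on the opposite strand, so part of their reads cannot be told apart. NR1D1 was at 4.56, 5.43 and 5.43 FPKM with MEOX2 and at 5.22, 7.33 and 4.72 FPKM in NC. NR1D2, the REV-ERB beta gene (chromosome 26, 40487219 to 40503447), had the smallest error of the 22 (SE 0.08): it was at 12.6, 13.3 and 12.4 FPKM with MEOX2 and at 12.5, 12 and 12.4 FPKM in NC. Its interval, -0.14 to 0.23, leaves room only for small differences. THRB, listed as ERBA BETA1 and 95.5 kb from NR1D2, was at 8.998, 8.34 and 9.30 FPKM with MEOX2 and at 11.1, 8.97 and 11.3 FPKM in NC (log2 difference -0.21, limma adjusted p = 0.475). RORA, which binds the same DNA elements as the REV-ERBs but activates from them, was at 3.62, 3.54 and 3.60 FPKM with MEOX2 and at 4.80, 2.98 and 3.95 FPKM in NC, where the samples were more spread. RORB, listed as NR1F2, had 2 reads in all.

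Of the receptors for fatty acids and oxysterols, PPARD, PPARA and NR1H2 averaged under 10 FPKM. PPARD, the widely expressed fatty acid receptor, was at 10.5, 8.29 and 10.8 FPKM with MEOX2 and at 7.61, 9.996 and 9.05 FPKM in NC. PPARA, the receptor that drives fatty acid oxidation in liver, was at 2.81, 2.57 and 2.78 FPKM with MEOX2 and at 2.22, 2.86 and 2.04 FPKM in NC. Both sets overlapped, with 95% intervals of -0.16 to 0.43 for PPARD and -0.17 to 0.47 for PPARA. NR1H2, the liver X receptor beta gene, was at 9.81, 9.10 and 8.88 FPKM with MEOX2 and at 8.98, 10.3 and 8.07 FPKM in NC (95% interval -0.22 to 0.27). The whole 8314-base span of NR1H2 lies within another row on the same strand, ENSOARG00000013693, at a mean of 93.6 FPKM, so its reads are uncertain. That other row had a log2 difference of 0.393 (limma adjusted p = 0.0774). RXRB, a shared dimer partner of these receptors, was at 11.4, 11.0 and 11.6 FPKM with MEOX2 and at 10.8, 11.96 and 10.4 FPKM in NC (95% interval -0.17 to 0.24), and RXRG had 1 read in all. For comparison, the partner RXRA was at 3.31, 3.59 and 3.52 FPKM with MEOX2 and at 6.93, 6.02 and 4.38 FPKM in NC (limma adjusted p = 0.101, and 0.0259 without NC sample 3). The liver X receptor alpha gene NR1H3 was at 29.7, 30.6 and 26.8 FPKM with MEOX2 and at 30.1, 32.2 and 27.97 FPKM in NC. The NR1H3 groups overlapped (95% interval -0.25 to 0.15, limma adjusted p = 0.882). Its FPKM lay above that of NR1H2, but NR1H3 had 2964 reads in all and NR1H2 had 2959. The deposited lengths were 1381 bases for NR1H3 and 4434 bases for NR1H2, so this gap in FPKM rests on length. PPARG2, the adipogenic PPARG row, had means of 8.09 ± 0.760 and 13.7 ± 0.458 FPKM (SD, n = 3 each; limma adjusted p = 0.00875).

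Of the receptors without a classical ligand, NR4A2 had the largest difference of the 22. NR4A2 (NURR1; ENSOARG00000007984, chromosome 2, 152145600 to 152150524, plus strand) belongs to a group of immediate early genes that act largely through their own transcription. It was at 8.82, 8.90 and 12.8 FPKM in MEOX2 samples 1 to 3 and at 15.4, 15.6 and 15.1 FPKM in NC samples 1 to 3. All 3 MEOX2 samples were lower than the tightly grouped NC samples, and MEOX2 sample 3 lay nearest to them. The means of 10.2 ± 2.27 and 15.4 ± 0.246 FPKM (SD, n = 3 each) differed 1.51-fold, with a log2 difference of -0.57 (SE 0.14, 95% interval -0.88 to -0.26) and a limma adjusted p of 0.0725. It was called by limma voom (adjusted p = 0.00535), and by limma without MEOX2 sample 3 (log2 difference -0.73, adjusted p = 0.0205). With any other single library left out it was not called (limma adjusted p from 0.127 to 0.213), and the difference was smallest, -0.49, without MEOX2 sample 1. The gene had 184 to 350 reads per library.

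The paralogs of NR4A2 were far lower. NR4A1 (NUR77) was at 2.48, 2.44 and 3.77 FPKM with MEOX2 and at 3.75, 2.57 and 2.51 FPKM in NC. Those values overlapped fully, with a difference of -0.02 and a 95% interval from -0.43 to 0.39. NR4A3 (NOR1) did not reach the level for testing: it had 3, 0 and 0 reads in MEOX2 samples 1 to 3 and 6, 6 and 12 reads in NC samples 1 to 3. These groups did not overlap, but in the fit without a filter NR4A3 had a limma adjusted p of 0.1998.

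The remaining orphan receptors were the testicular receptors, the COUP-TFs and ESRRA. NR2C2 (TR4; ENSOARG00000017406, chromosome 19, 57107844 to 57216926, minus strand) was at 7.85, 9.04 and 8.23 FPKM with MEOX2 and at 9.70, 9.90 and 11.6 FPKM in NC. The groups did not overlap, NC sample 3 was the highest, and the difference was -0.28 (SE 0.10, limma adjusted p = 0.264). Its partner NR2C1 (TR2) was at 18.0, 18.0 and 17.7 FPKM with MEOX2 and at 19.3, 17.6 and 21.2 FPKM in NC, with a 95% interval from -0.31 to 0.10. Of the COUP-TFs, repressors and regulators of mesenchymal cell fate, NR2F1 was at 10.7, 7.57 and 9.08 FPKM with MEOX2 and at 12.7, 10.9 and 8.997 FPKM in NC. NR2F6 was at 9.84, 10.7 and 10.5 FPKM with MEOX2 and at 12.7, 11.3 and 9.22 FPKM in NC. NR2F2 was at 2.65, 2.52 and 2.47 FPKM with MEOX2 and at 3.08, 2.35 and 3.44 FPKM in NC. All 3 COUP-TF genes had negative differences (-0.23, -0.08 and -0.15) with overlapping groups and limma adjusted p from 0.581 to 0.860. ESRRA, a regulator of mitochondrial genes, had a difference of 0.00893, with a 95% interval from -0.32 to 0.34. NR1I3, a xenobiotic receptor best known from liver, was the lowest gene tested, at 25 to 42 reads per library.

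The other 17 receptor genes had a mean of at most 0.777 FPKM and were not tested. They had between 0 and 78 reads in the 6 libraries together, and 11 of them had under 5 reads in every library. By mean FPKM, ESRRG was the highest of the 17, at 11, 25 and 14 reads with MEOX2 and 14, 4 and 10 reads in NC. NR6A1 had 39 reads in all, HNF4G 29 and NR2E1 21. The liver and gut factors HNF4A (3 reads), NR1I2 (5 reads) and NR1H4 (5 reads), the steroidogenic factors NR5A1 (1 read), NR5A2 (4 reads) and NR0B1 (3 reads), and ESRRB (5 reads) were close to 0. NR0B2 was at 0 in every library.

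Genes that work with the receptors were taken from 14 lists chosen by role, covering ligand supply, coregulators, chaperones and known target genes; 133 genes other than receptors were matched and 100 tested. limma called 3 higher and 6 lower with MEOX2 (9.0%, against 2.67% of all genes), and 91 were not called. The lists were chosen with earlier results of these data known, and some of their genes are also fat cell genes, so this share is given as a description.

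Genes of ligand supply showed 2 rises. ALDH1A3, which makes retinoic acid from retinaldehyde, rose from 3.26, 3.09 and 2.57 FPKM in NC to 4.98, 7.27 and 6.18 FPKM with MEOX2 (log2 difference 0.84, SE 0.15, limma adjusted p = 0.0214). It was the only gene called by limma of 9 tested in retinoid binding, synthesis and breakdown (list median -0.13), where voom called 1 higher and 1 lower, and the call was lost whichever library other than MEOX2 sample 1 was left out (up to 0.0901), and without a filter (0.0769). ALDH1A1, another retinaldehyde dehydrogenase, averaged 40.2 ± 1.70 FPKM with MEOX2, against 53.5 ± 4.90 FPKM (SD, n = 3 each; limma adjusted p = 0.0522, and 0.00588 by voom). RDH10, which makes retinaldehyde from retinol, was at 11.0 and 7.88 FPKM in the MEOX2 and NC means (limma adjusted p = 0.146). CYP27A1, a sterol hydroxylase that makes the oxysterol ligand 27-hydroxycholesterol, rose from 25.8 ± 1.25 to 34.8 ± 2.11 FPKM (log2 difference 0.41, limma adjusted p = 0.0374). CYP27A1 was the only one called by limma of 10 tested in the steroid and oxysterol list (list median -0.09), and the call was lost whichever library was left out (up to 0.161), without a filter, without the trend and with the replicate block. None of the 3 tested genes for thyroid hormone and vitamin D was called by limma or limma voom, with 1 at an unadjusted p under 0.05.

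None of 15 tested coactivators was called by limma or limma voom, with 1 at an unadjusted p under 0.05 (PPRC1, -0.26). limma called none of 13 tested corepressors, voom called 1, and 1 had an unadjusted p under 0.05. That smallest p was for NRIP1 (RIP140), a corepressor that restrains fat oxidation genes in adipose tissue, averaging 16.9 ± 0.616 FPKM with MEOX2 against 22.4 ± 3.19 FPKM, with groups that did not overlap (log2 difference -0.38, limma adjusted p = 0.128, and 0.0205 by voom). Of 7 tested chaperones of steroid receptors, FKBP5 fell. HSP90AB1, the main cytosolic chaperone measured, was at 632.5 ± 48.2 and 681.5 ± 19.0 FPKM (limma adjusted p = 0.619).

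Among target genes, those of the glucocorticoid receptor held 3 of the falls. FKBP5, a glucocorticoid-induced chaperone that lowers hormone binding by NR3C1, fell from 161, 149 and 158 FPKM in NC to 118, 125 and 118 FPKM with MEOX2 (log2 difference -0.37, limma adjusted p = 0.0295). SGK1, a glucocorticoid-induced kinase, fell from 53.9, 53.1 and 55.7 FPKM to 32.0, 38.1 and 33.8 FPKM (log2 difference -0.64, limma adjusted p = 0.00770). PDK4, which turns fuel use toward fatty acids and is a target of NR3C1 and of the PPARs, fell from 7.84, 6.38 and 7.83 FPKM to 3.48, 3.43 and 3.64 FPKM (log2 difference -0.88, limma adjusted p = 0.00697). The other 6 of the 9 tested glucocorticoid targets were not called, and the list median was -0.19. SGK1 and PDK4 passed whichever library was left out, while FKBP5 passed in none of those 6 fits (limma adjusted p from 0.0568 to 0.156), nor without the trend or with the replicate block.

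Of 11 tested targets of PPARA and PPARD, PDK4 and the lipid droplet protein PLIN2, listed as ADFP, fell, and 9 were not called (list median -0.12). ADFP went from 444, 435 and 416 FPKM in NC to 277, 289 and 275 FPKM with MEOX2 (log2 difference -0.62, limma adjusted p = 0.00285) and passed whichever library was left out. CPT1A, the gate of mitochondrial fatty acid entry, was at 4.81 ± 0.410 and 7.14 ± 0.476 FPKM (limma adjusted p = 0.0519, and 0.00108 by voom). Of 7 tested targets of the liver X receptors, APOE, a lipoprotein component, fell from 461, 458 and 313 FPKM to 163, 213 and 206 FPKM (log2 difference -1.07, limma adjusted p = 0.0123), and was no longer called when NC sample 1 or 2 was left out (0.0549 and 0.0537) or without a filter (0.0599). The cholesterol exporter ABCA1, of the same list, was at 27.4 and 23.0 FPKM (limma adjusted p = 0.415), and the list median was 0.06. PLIN2 and APOE are also genes of fat-laden cells, and the adipocyte markers called above were lower in the same samples. The part of that in these falls was not tested.

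**Figure D4:**
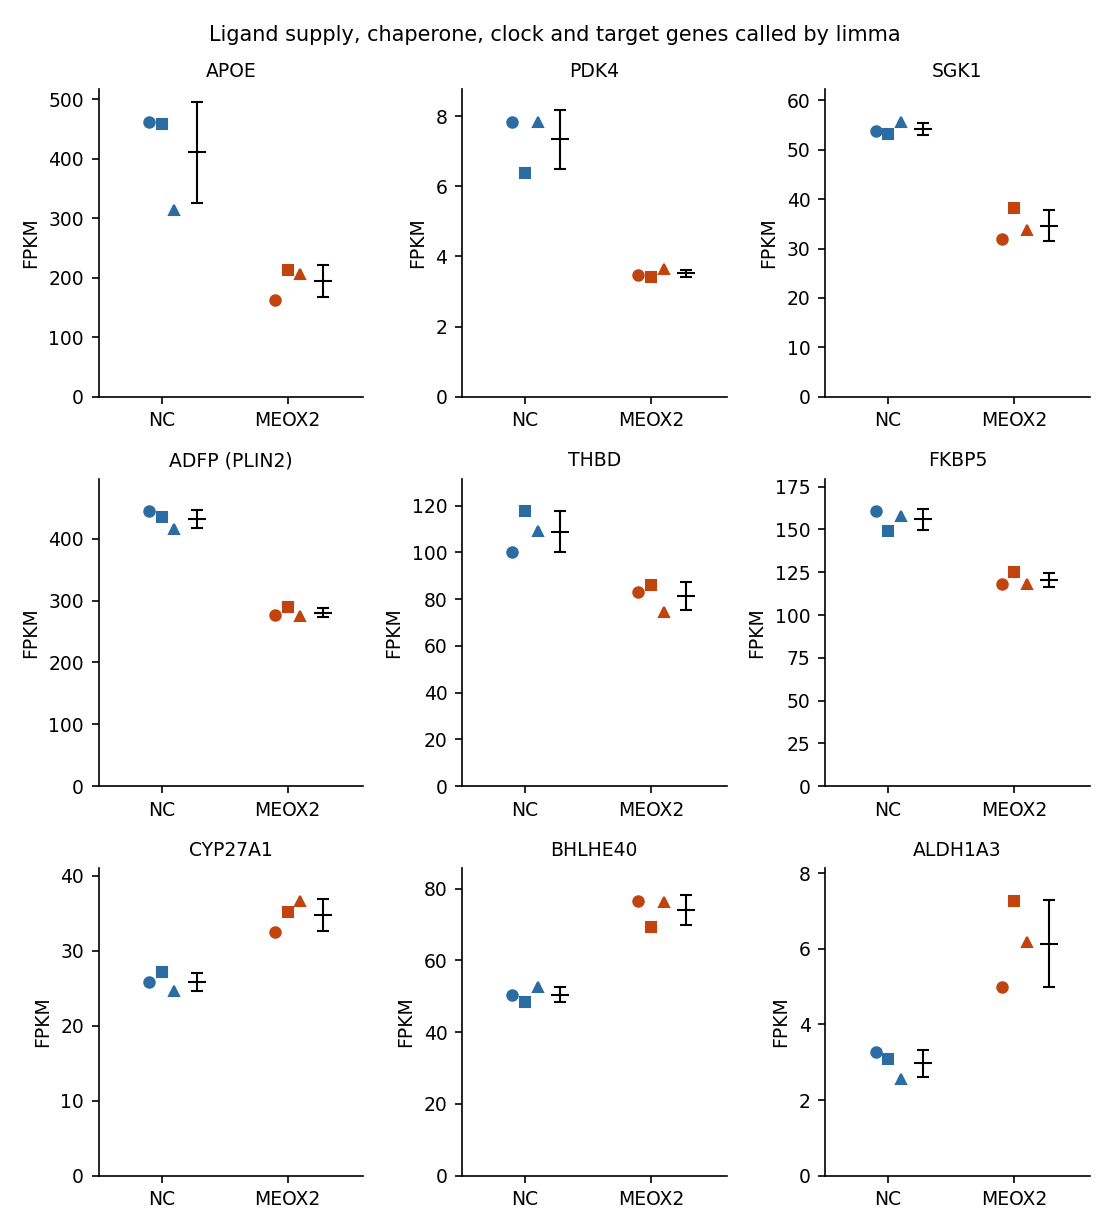
FPKM per sample (circle, square and triangle for samples 1, 2 and 3) of the 9 ligand supply, chaperone, clock and target genes called by limma, with mean and SD as bars beside the points and axes starting at 0. APOE, PDK4, SGK1, ADFP, THBD and FKBP5 are lower with MEOX2, and CYP27A1, BHLHE40 and ALDH1A3 are higher.

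Of 9 tested clock genes around the REV-ERBs and RORA, BHLHE40 (DEC1), a repressor in the clock feedback loop, rose from 50.4, 48.3 and 52.5 FPKM in NC to 76.5, 69.2 and 76.4 FPKM with MEOX2 (log2 difference 0.55, limma adjusted p = 0.00920). It was no longer called when MEOX2 sample 3 (0.0529) or NC sample 1 (0.0549) was left out. CRY2 (0.35) and TEF (0.26) had groups that did not overlap but were not called by limma, and the list median was 0.26, against -0.00273 for all genes. limma voom called 2 of the 9, both higher.

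Of 8 tested targets of the retinoic acid receptors, which include RARB itself, neither limma nor voom called any, with 3 at an unadjusted p under 0.05 (list median -0.02). Those 3 were RARB, CRABP2, a carrier that delivers retinoic acid to its receptors (46.4 ± 4.50 and 37.6 ± 1.31 FPKM), and RARRES1 (730.2 ± 37.2 and 846 ± 36.9 FPKM). Of 3 tested targets of the vitamin D receptor, with VDR among them, THBD (thrombomodulin) fell from 108.9 ± 8.80 to 81.2 ± 5.99 FPKM (limma adjusted p = 0.0473). THBD was not called whichever library was left out (up to 0.181), nor in 5 other alternatives. CYP24A1, the vitamin D target with the strongest known induction, did not reach the level for testing. Neither of the 2 tested estrogen receptor targets was called by limma or limma voom, with 0 at an unadjusted p under 0.05. limma called none of the 5 tested thyroid hormone targets, voom called 1, and 2 had an unadjusted p under 0.05. HR, a corepressor gene induced by thyroid hormone, was at 7.19 and 5.21 FPKM (limma adjusted p = 0.131) and THRSP at 1.44 and 3.68 FPKM (0.149).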

How the data were processed

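The FPKM values of 6 sheep RNA sequencing libraries come from 1 table the authors deposited. The submitters' processing notes list DESeq2 1.20.0, featureCounts 1.5.0-p3, HISAT2 2.0.5, fastp and CASAVA 1.8, with no roles; genome build, annotation and strand setting: not given in the sources used here. FPKM times the deposited gene length came in whole steps per library for 100% of nonzero values (tolerance 0.01), which gave the reads used by voom.

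Log2(FPKM + 1) of genes averaging 1 FPKM or more was fitted with limma 3.58.1 in R 4.3.3 (intensity trend, no covariates), with Benjamini-Hochberg adjustment over 13121 genes. This scale understates differences of low genes. The fit was also run on simulated data with the same spread setting for all genes. That run cannot show how often differences as small as those of most receptors would be missed. Of 206 listed symbols, 179 matched directly, 6 through RefSeq synonyms (ARS-UI_Ramb_v3.0) and 21 did not. Receptors and lists were chosen with earlier results of these data known. Values in every sample were due for receptors that were called, did not overlap or had an unadjusted p under 0.05, and for the 12 with the highest mean; from each list, called genes and up to 3 others with the smallest p could be named. Other genes and receptors named were chosen after their values were seen. The values of 1 listed gene are not reported here. Python 3.11.15, numpy 2.4.6, pandas 2.3.3, scipy 1.17.1 and matplotlib 3.10.9 did the rest.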

Additional observations from a re-analysis of the deposited data

How the results depend on the processing

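The counts of calls and the difference of each tested receptor, marker called and listed gene named were recomputed under 15 alternatives; the list medians, family shares and summed marker levels were not. The count of nuclear receptor genes called, 0, became 2 with limma voom on recovered reads and ranged from 0 to 1 with single libraries left out; 20 of the 22 tested genes were called in none of the alternatives. The count over all genes, 350, was 194 without a filter and 574 with limma voom, and ranged from 117 to 276 with single libraries left out. The count of ligand supply, coregulator and target genes, 9, was 5 without a filter and 14 with limma voom, and ranged from 3 to 7 with single libraries left out. The cause of these shifts was not tested, and the fits that leave out a library also have fewer samples. MEOX2 stayed past the threshold in all 15, as did SGK1, PDK4, ADFP and PPARG2. Of the 22 tested receptor genes, 9 changed sign in at least 1 of the 15 alternatives. The 6 whose groups did not overlap kept their sign, but this carries no support. Separated groups keep their sign with any pseudocount and whichever library is left out. Same-numbered samples of the groups did not deviate together (correlations of -0.0747, 0.0204 and -0.00417). With so few samples this cannot show whether they shared an animal, a culture or a batch. The replicate block gave 242 genes, 0 nuclear receptor genes and 6 of the listed genes. Receptors with under 5 reads per library are limited by depth.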

Other observations

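After the values were seen, 5 shares within receptor families were computed. Of the summed FPKM of RARA, RARB and RARG, RARB made up 17.3% ± 1.08 with MEOX2 and 12.7% ± 0.663 in NC (SD, n = 3 each). RARG made up 40.8% ± 2.54 and 46.9% ± 1.79 of the same sum. Of NR4A1 and NR4A2 together, NR4A2 made up 77.9% ± 0.623 with MEOX2 and 84.0% ± 3.14 in NC. The share of NR2C2 in NR2C1 and NR2C2 together was 31.8% ± 1.55 with MEOX2 and 34.9% ± 1.31 in NC. The groups did not overlap in these 4 shares and overlapped in that of RARA. The shares were built on receptors already seen to be separated, so they carry no test.

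Genes of the same 3 receptor families lie near each other on 2 chromosomes, in a different order. THRA, NR1D1 and RARA lie on chromosome 11, with RARA 180.0 kb from THRA, and THRB, NR1D2 and RARB lie on chromosome 26, with RARB 1260 kb from THRB. RARB alone of these 6 had groups that did not overlap, against 18.9% of all genes tested.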
